A study of Mus musculus with 6 samples.

Results

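The genes described here make, store and release fatty acids, triglycerides and the lipids of sebum. They are the rows of the count matrix whose symbol is one of 42 names, from synthesis and desaturation of fatty acids to wax esters, out of 24982 rows. All 42 names were found, and 39 passed the filter on low counts (of 12310 rows that did). Poly(A) RNA had been sequenced from sorted cells of mouse dorsal skin in 6 libraries, 1 from each side of 3 animals numbered 890, 892 and 899. On the left side the cutaneous nerves had been dissected out 4 weeks before sampling (denervated, n = 3), and on the right they were left in place (normal, n = 3).

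All 6 libraries carry Lgr6-EGFP-Ires-CreERT2, in which the Lgr6 locus drives GFP and a tamoxifen-inducible Cre, together with the reporter R26loxP-stop-loxP-tdTom, which Cre switches on. All animals received 20 µg of tamoxifen on postnatal day 42, ketamine and xylazine at surgery, meloxicam after it, and individual housing. Both sides belong to operated animals, and the labels mention no dissection of the right side without nerve removal, so the missing nerves, the operation itself and left against right cannot be told apart. The tdTomato label reaches descendants of Lgr6 cells, and CD49f (Itga6) staining was used to gate basal cells. The age at sampling is not stated. Totals ran from 9610071 to 26167593 counts per library, the lowest in the denervated library of animal 890. Basal markers were present, with 7 of 7 passing the filter and Krt5 between 17670 and 21783 CPM in every library.

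Keratinocytes build fatty acids from acetyl-CoA with acetyl-CoA carboxylase and fatty acid synthase, then lengthen them with elongases and insert double bonds with desaturases. Acyl-CoA synthetases activate fatty acids for assembly into triglycerides, whose last step is catalysed by the DGAT enzymes. Sebocytes, the secretory cells of the sebaceous gland, run this programme at high flux and add wax esters. The gland lies beside the isthmus of the hair follicle, where Lgr6 cells are found.

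Most of the general lipid machinery was well expressed, and most of the genes known for sebocytes were not. Levels between genes are compared in TPM (an abundance per transcript length) as the mean over 6 libraries. At 10 TPM or more stood 25 members, between 1 and 10 TPM 12, and under 1 TPM 5. The member just above the bound of 10 TPM was Lpin1 at 10.8 TPM and the one just below it Lpin2 at 9.33 TPM. Of 9 members known for sebocytes as background, 7 lay in the lower classes, between 0.974 TPM (Awat2) and 4.37 TPM (Far2). The exceptions were Scd1 at 122.8 TPM and Dgat2 at 47.8 TPM, both of which also act outside the gland. The 10 highest members were Fabp5, Scd1, Elovl1, Acsl5, Fasn, Acly, Acsl3, Acsl1, Mgll and Srebf1, from 185.6 down to 71.2 TPM. Fabp4, the fatty acid binding protein of adipocytes and endothelium, had 0 counts in 6 of 6 libraries, which allows at most 0.113 to 0.323 CPM (3 counts, for counting error only).

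**Figure D1:**
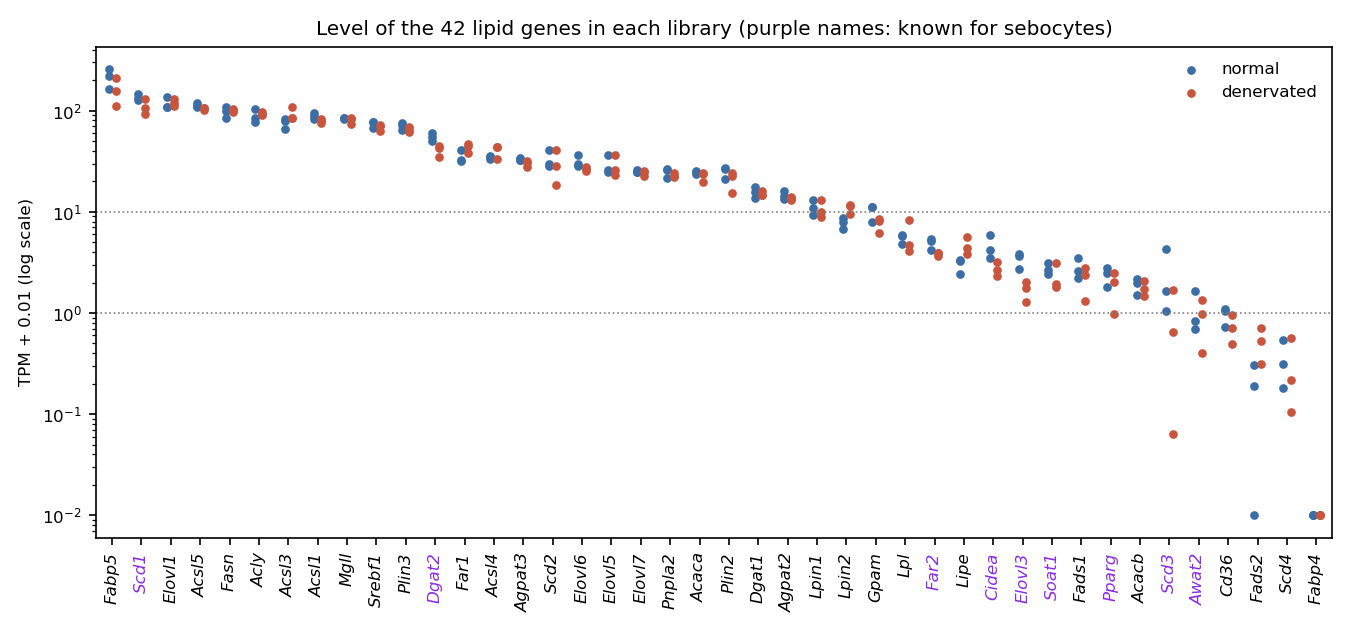
TPM of the 42 lipid genes in each of 6 libraries (blue normal, red denervated), on a log axis after adding 0.01, in order of the mean over libraries. Dotted lines mark 1 and 10 TPM, and 7 of the 9 purple names, known for sebocytes, lie below 10 TPM.

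Denervated and normal sides were compared with edgeR's quasi-likelihood test with the animal as a block, adjusted by Benjamini-Hochberg over all 12310 tested genes and called below 0.05. Among the 39 tested members 1 rose, the lipin gene Lpin2 (1.44-fold), and 3 fell, the desaturase gene Scd3 (3.12-fold lower), the fatty acid binding protein gene Fabp5 (1.34-fold lower) and the diacylglycerol acyltransferase gene Dgat2 (1.34-fold lower). Over all tested genes 3.46% were called, 2.88% as higher and 0.577% as lower. Of all 426 calls 83.3% were higher, and when libraries were scaled by their totals alone, 59.3% of 290 calls were. The median log2 fold change was −0.11 over the tested members and −0.02 over all tested genes, with 30 members below 0 and 9 above. The sides did not overlap for 6 members lower and 3 higher after denervation, against 9.21% and 9.76% of all tested genes (19.0% in either direction). Without the block 0 members and 0 of 12310 genes (0%) were called by edgeR, with 10 members at an unadjusted p below 0.05, against 14 with the block. Over all 12310 tested genes these numbers were 1537 without and 2246 with the block. DESeq2 with the animal as a block gave fold changes for 17311 genes, 41 members among them. It called 489 genes and 4 members, of which Lpin2 and Dgat2 were also called by edgeR. It gave Fabp5 an adjusted p of 0.0642 and Scd3 none. In the authors' deposited table, adjusted p-values below 0.05 stand beside 5 members, namely Scd1, Fabp5, Acsl3, Lpin2 and Dgat2, where 7.27% of 6752 rows with an adjusted p do. Of the 39, Pparg, Acacb, Scd3, Fads1, Elovl3, Lpl, Cd36, Agpat2, Dgat1, Cidea, Lipe, Far2, Awat2 and Soat1 have no adjusted p there. The 5 are therefore out of the remaining tested members.

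**Figure D2:**
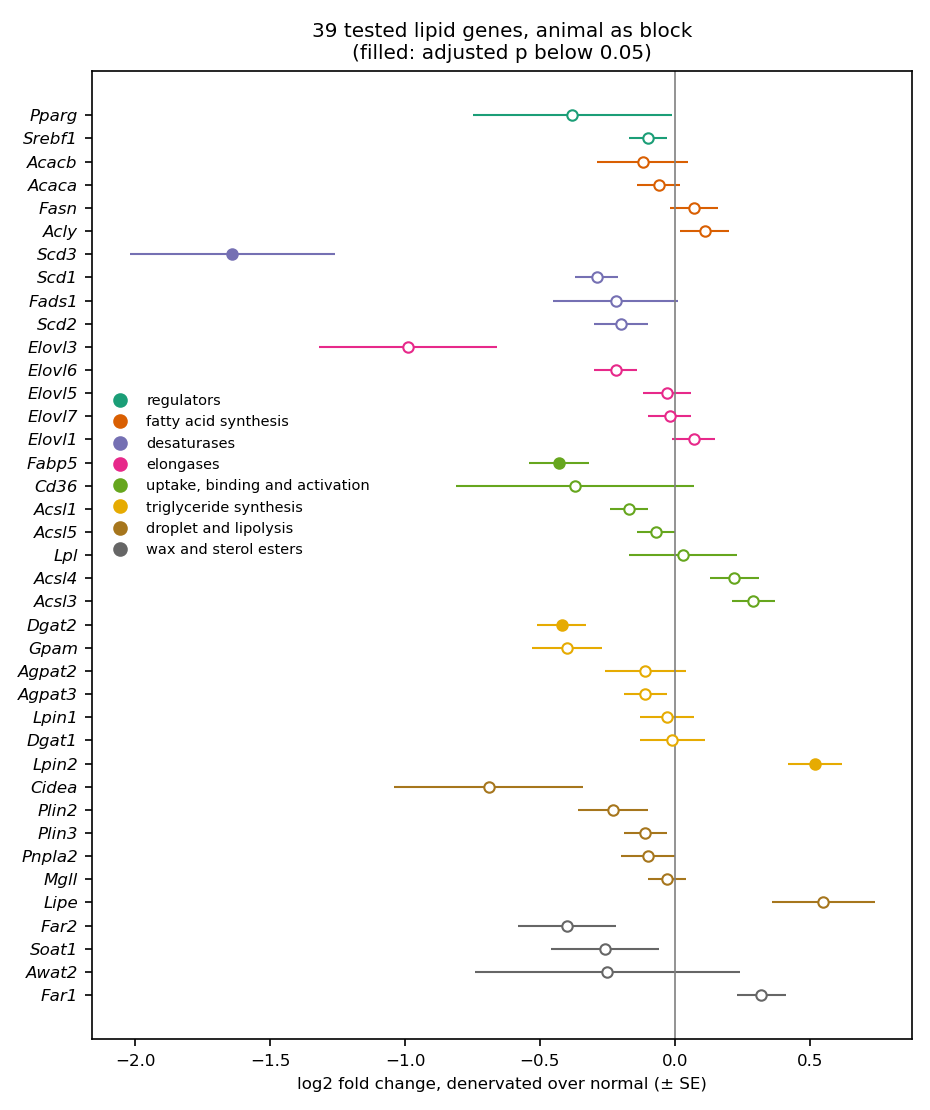
Log2 fold change of denervated over normal (± SE, edgeR with the animal as a block, 3 animals) for the 39 tested members, by role. Filled points passed at an adjusted p below 0.05, namely Scd3, Fabp5 and Dgat2 on the lower side and Lpin2 on the higher side.

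Neither of the 2 regulators among the members passed. Srebf1 encodes the transcription factor that drives fatty acid synthesis genes, and stood at 202, 189 and 205 CPM on the normal side of animals 890, 892 and 899 and at 194, 175 and 189 CPM on the denervated side (CPM are counts scaled to the TMM-adjusted library size, n = 3 per side throughout, and log2 fold changes are given ± SE). It was lower in 3 of 3 animals by a log2 fold change of −0.10 ± 0.07 (adjusted p = 0.512), and the sides overlapped. Pparg, the nuclear receptor of adipocyte and sebocyte differentiation, stood at 2.44, 2.29 and 1.72 CPM against 1.94, 2.33 and 0.842 CPM. Its log2 fold change was −0.38 ± 0.37 (adjusted p = 0.639), so that its error was as wide as the difference.

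No gene of the core of fatty acid synthesis passed. Fasn, the fatty acid synthase, stood at 604, 547 and 669 CPM on the normal and 632, 660 and 618 CPM on the denervated side, a log2 fold change of 0.07 ± 0.09 with an adjusted p of 0.707. It was higher in animals 890 and 892 and lower in animal 899, and without animal 892 its value was −0.01. Acly, which makes cytosolic acetyl-CoA from citrate, stood at 220, 209 and 275 CPM against 252, 252 and 249 CPM (0.11 ± 0.09, adjusted p = 0.551). The acetyl-CoA carboxylase genes Acaca and Acacb, for the cytosolic and the mitochondrial enzyme, had log2 fold changes of −0.06 and −0.12. Acacb was the low member of the group at 1.82 TPM, against 98.9 TPM for Fasn.

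Stearoyl-CoA desaturases, which put the first double bond into saturated fatty acids, were spread over nearly the whole range of levels. In mm10 the 4 genes lie in 1 cluster on chromosome 19, with Scd3 (44203269 to 44244016), Scd2 (44293674 to 44306864) and Scd4 (44333092 to 44346743) on the plus strand and Scd1 (44394455 to 44407879) on the minus strand. Their coding sequences are similar enough that short reads can fit more than 1 of them. A stretch of 60 coding bases, at positions 599 to 658 of Scd3 counted from the start codon, is identical in all 4 genes (GENCODE M21 transcripts) and reads as follows.
Scd1, Scd2, Scd3 and Scd4: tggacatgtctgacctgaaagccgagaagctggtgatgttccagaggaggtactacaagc
By contrast, the last 60 coding bases, stop codon included, tell them apart, with capitals for bases that differ from Scd3.
Scd3: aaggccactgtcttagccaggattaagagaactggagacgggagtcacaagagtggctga
Scd1: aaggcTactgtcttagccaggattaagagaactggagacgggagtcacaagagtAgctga
Scd4: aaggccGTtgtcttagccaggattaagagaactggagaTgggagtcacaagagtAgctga
Scd2: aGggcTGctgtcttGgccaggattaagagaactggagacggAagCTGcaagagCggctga
Here Scd1 differs from Scd3 at 2 bases, Scd4 at 4 and Scd2 at 9. Over the longest coding transcript of each gene, 6.69% of the 50-base windows of Scd3, 6.32% of Scd4, 4.66% of Scd1 and 4.01% of Scd2 occur in a transcript of another gene, and the longest run that Scd3 shares with Scd1 is 185 bases. The read length and the counting rule for such reads were not at hand.

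Scd3 fell, and had the largest fold change of the tested members in this fit. Like Scd1, it is counted here among the genes known for sebocytes. Raw counts were 50, 66 and 111 on the normal side and 1, 17 and 40 on the denervated side, or 1.88, 3.09 and 7.94 CPM against 0.108, 1.24 and 3.06 CPM. Every animal was lower on its denervated side, but the sides overlapped because animal 899 was the highest and animal 890 the lowest on both. The paired log2 fold change was −1.64 ± 0.38 (adjusted p = 0.0325). The ratio of denervated to normal was 0.401 (95% exact counting interval 0.220 to 0.691) in animal 892 and 0.386 (0.262 to 0.559) in animal 899. In animal 890 it was 0.0573 (0.00142 to 0.334) and rests on 1 count. Without animal 890 the log2 fold change was −1.35 (adjusted p = 0.00695), and without animal 899 it was −1.96 and did not pass (0.0510). DESeq2 gave −1.78 with no adjusted p.

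Scd1, the most abundant desaturase here and the one whose loss leaves mice without functional sebaceous glands, stood at 343, 338 and 388 CPM on the normal side and 259, 289 and 330 CPM on the denervated side. Its sides did not overlap, yet it missed the threshold, at −0.29 ± 0.08 on the log2 scale with an adjusted p of 0.0586. Its adjusted p ran from 0.0145 to 0.398 over the alternatives. It passed by DESeq2 (0.0156), with library totals (0.0356), without the filter (0.0145) and without animal 899 (0.0232). It did not pass without animal 890 (0.266), without animal 892 (0.226), without the block (0.301) or in limma (0.355 and 0.398). Scd2, the form of many tissues outside liver, stood at 89.1, 85.5 and 124.5 CPM against 59.6, 88.1 and 118 CPM, higher in animal 892 and lower in the other two (−0.20 ± 0.10, adjusted p = 0.341). Scd4, known from heart, had 11, 19 and 4 raw counts against 9, 5 and 2, and was too low to be tested. Scaled to library size it stood at 0.413, 0.888 and 0.286 CPM against 0.969, 0.364 and 0.153 CPM. Its denervated side was higher in animal 890 and lower in animals 892 and 899. The desaturases of polyunsaturated fatty acids were low as well, with Fads1 at 2.46 TPM (−0.22 ± 0.23) and Fads2 at 0.334 TPM and untested.

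The plot of paired levels shows the 4 called genes beside Scd1 and Elovl3, which did not pass.

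**Figure D3:**
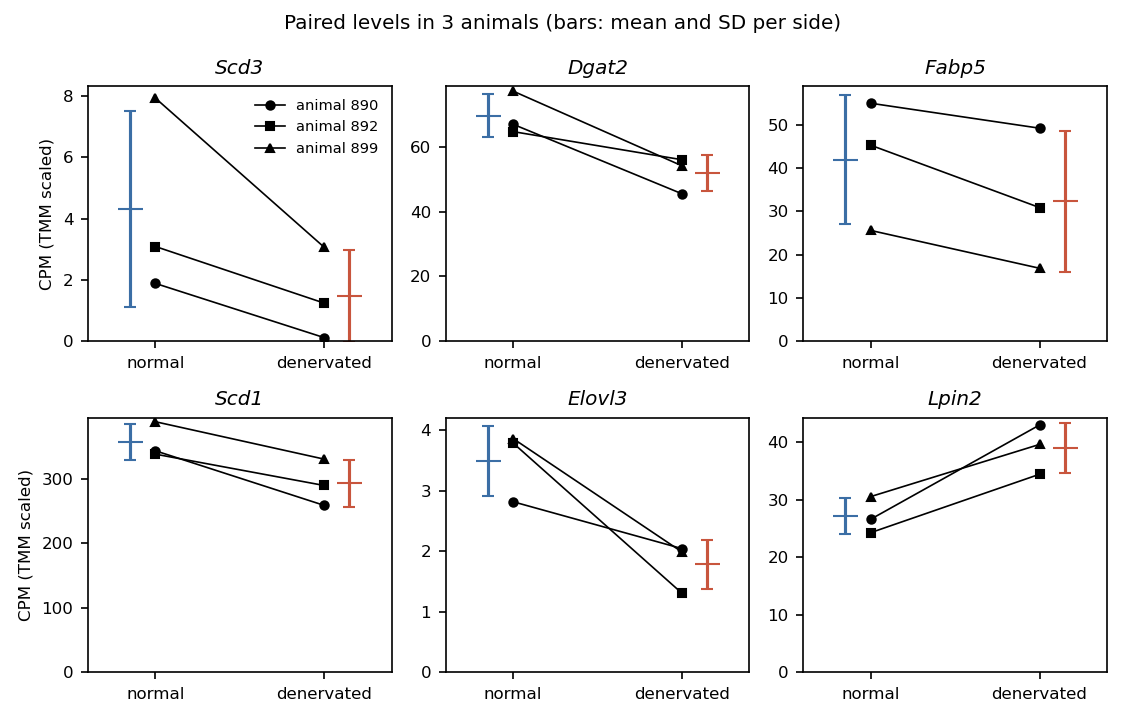
CPM of Scd3, Dgat2, Fabp5, Scd1, Elovl3 and Lpin2 on the normal and denervated side, with 1 black line per animal and coloured bars for mean and SD of 3 libraries (the SD bar of Scd3 is cut at 0). Lines run downward in 3 of 3 animals for all but Lpin2, where they run upward in 3 of 3.

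No elongase passed. Elovl3, which makes very long saturated and monounsaturated fatty acids in sebaceous gland and brown fat, stood at 2.82, 3.79 and 3.86 CPM on the normal side and 2.05, 1.31 and 1.99 CPM on the denervated side. The sides did not overlap, and the log2 fold change was −0.99 ± 0.33 (adjusted p = 0.122). Leaving out animal 890 gave −1.23 and a pass (adjusted p = 0.0474), leaving out animal 892 −0.70 (0.616) and leaving out animal 899 −1.0 (0.181). Elovl6, which lengthens palmitate to stearate, the substrate of the desaturases, stood at 99.7 ± 12.0 (SD) against 85.4 ± 3.07 CPM, without overlap (−0.22 ± 0.08, adjusted p = 0.159). Elovl1, an elongase of saturated very long chains needed for the skin barrier, was abundant and similar on both sides, at 107, 114 and 138.5 CPM against 128, 119.5 and 128 CPM (0.07 ± 0.08). Elovl5 and Elovl7, at 28.9 and 24.6 TPM, had log2 fold changes of −0.03 and −0.02.

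Fabp5, the epidermal fatty acid binding protein that carries fatty acids in the cytosol, fell. It stood at 55.1, 45.4 and 25.6 CPM on the normal side of animals 890, 892 and 899 and at 49.3, 30.9 and 16.8 CPM on the denervated side. Animals differed more than sides did, so the sides overlapped and the call needs the pairing. The value was −0.43 ± 0.11 on the log2 scale with the animal as a block (adjusted p = 0.0488), and −0.40 without it (adjusted p = 0.697). The call was lost with DESeq2 size factors (0.0523), by DESeq2 (0.0642), without animal 892 (0.295) and without animal 899 (0.0701), at log2 fold changes of −0.42, −0.42, −0.35 and −0.35. In the authors' estimated counts, which number 1.99 times the raw counts for this gene, the value was −0.41 (adjusted p = 0.0390). Markers of suprabasal keratinocytes, which also express Fabp5, summed over 6 genes to between 9003 and 9373 CPM on the normal and between 7383 and 9603 CPM on the denervated side, with 2 of 3 animals lower, and their part in this result was not tested.

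The acyl-CoA synthetases, which activate fatty acids, lay on both sides of 0 and none passed. Acsl3, found on lipid droplets, stood at 129, 164 and 171 CPM on the normal side and 178, 176 and 211 CPM on the denervated side. Its sides did not overlap, and it was higher in 3 of 3 animals by a log2 fold change of 0.29 ± 0.08 (adjusted p = 0.0711). It passed by DESeq2 (0.30, adjusted p = 0.0355), without the filter (0.0101) and without animal 892 (0.0449). It did not pass without animal 890 (0.282) or 899 (0.0643), without the block (0.359), with library totals (0.135) or in limma (0.36 and 0.398). The remaining settings did not call it either. Acsl4, which prefers arachidonic acid, was higher in 3 of 3 animals with 0.22 ± 0.09 (adjusted p = 0.184). Acsl1 stood at 212, 208 and 195 CPM against 177, 196 and 175 CPM, lower in 3 of 3 animals (−0.17 ± 0.07, adjusted p = 0.245). Acsl5 stood at 211, 210 and 200 CPM against 199, 205 and 187 CPM (−0.07 ± 0.07, adjusted p = 0.641). Lpl, the lipase that frees fatty acids from lipoproteins, stood at 11.5 ± 1.23 (SD) against 12.3 ± 5.25 CPM, and Cd36, a fatty acid transporter, at 1.56 ± 0.354 against 1.21 ± 0.426 CPM.

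Triglyceride synthesis held the only pair of called members in 1 group, with opposite directions. Dgat2, which catalyses the final acylation of diacylglycerol, stood at 67.0, 64.8 and 77.3 CPM on the normal side and 45.5, 56.1 and 54.2 CPM on the denervated side. Every normal library was above every denervated one, and the log2 fold change was −0.42 ± 0.09 (adjusted p = 0.0251). Without each animal in turn the value was −0.36 to −0.52 and passed. Dgat1, the enzyme of the same step from another protein family, stood at 20.0 ± 1.69 (SD) against 19.9 ± 0.768 CPM (−0.01 ± 0.12, adjusted p = 0.984). Whether the changes of the pair differ was not tested.

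Lpin2, a phosphatidate phosphatase that makes diacylglycerol, rose. It stood at 26.6, 24.3 and 30.5 CPM on the normal side and 43.0, 34.4 and 39.6 CPM on the denervated side, without overlap, as in 9.76% of all tested genes in this direction. Animal 890 had a log2 difference of 0.69, animal 892 of 0.50 and animal 899 of 0.37 (fitted 0.52 ± 0.10, adjusted p = 0.0165). It passed without each animal in turn, at 0.44 to 0.60, and by DESeq2 (0.53, adjusted p = 0.00802). Its relative Lpin1 stood at 36.4 ± 5.61 (SD) against 35.5 ± 4.97 CPM (−0.03 ± 0.10). Gpam, which starts glycerolipid synthesis in mitochondria, stood at 38.3, 39.2 and 28.5 CPM against 22.4, 29.4 and 28.3 CPM (−0.40 ± 0.13, adjusted p = 0.116). Animal 890 differed by −0.77 and animal 899 by −0.01. The acyltransferase genes Agpat2 and Agpat3 both stood at −0.11, lower in 3 of 3 animals and not passing.

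No gene of lipid droplets or lipolysis passed. Cidea, a droplet protein of brown fat and sebocytes, stood at 2.33, 2.24 and 3.43 CPM on the normal side and 1.61, 1.53 and 1.76 CPM on the denervated side, without overlap (−0.69 ± 0.35, adjusted p = 0.314). Lipe, the hormone-sensitive lipase, stood at 6.31, 5.84 and 4.93 CPM against 10.2, 8.0 and 6.89 CPM, also without overlap but in the other direction (0.55 ± 0.19, adjusted p = 0.131). Part of its sequence (4.59% of 50-base windows) lies in an antisense transcript, and whether counting used strand is not stated. Mgll, which splits monoglycerides, stood at 176, 186 and 184 CPM against 168, 193 and 173 CPM (−0.03 ± 0.07). The droplet coat genes Plin2 and Plin3 stood at −0.23 ± 0.13 and −0.11 ± 0.08, and the triglyceride lipase gene Pnpla2 at −0.10 ± 0.10.

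Among the genes of wax and sterol esters, the fatty acyl-CoA reductases, which make the fatty alcohols of waxes, lay on opposite sides of 0. Far1 stood at 39.3 TPM and, in CPM, at 88.2 ± 14.8 (SD) against 109.6 ± 10.3, higher in 3 of 3 animals (0.32 ± 0.09, adjusted p = 0.0769). Far2, the reductase linked to sebaceous gland, stood at 4.37 TPM, with 8.08, 9.59 and 10.2 CPM against 7.11, 7.05 and 6.81 CPM (−0.40 ± 0.18, adjusted p = 0.245). Soat1, which esterifies cholesterol, stood at 7.11 ± 0.912 against 6.04 ± 1.82 CPM. Awat2, the wax synthase of sebocytes, stood at 0.989 ± 0.382 against 0.840 ± 0.320 CPM, or 16 to 21 counts against 7 to 15. At these counts only large differences could be seen (SE 0.49).

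The low-level genes known for sebocytes lay on the same side of 0. All 7 (Scd3, Elovl3, Cidea, Far2, Pparg, Soat1 and Awat2) had negative log2 fold changes, from −1.64 to −0.25, but only Scd3 passed. Of all 12310 tested genes 6731 lay below 0, and of the 39 tested members 30 did. Among the 7 genes, 5 were lower in 3 of 3 animals, where 21.4% of all tested genes were. Their CPM summed to 25.1, 28.2 and 36.7 on the normal side and 19.0, 18.7 and 23.7 on the denervated side of animals 890, 892 and 899, so the sides did not overlap. Without Scd3 the sums were 23.2, 25.1 and 28.7 against 18.8, 17.5 and 20.7. By mean CPM the largest parts of the sums were Far2 (9.27 normal, 6.99 denervated) and Soat1 (7.11 normal, 6.04 denervated). Of the 7 other tested members under 10 TPM, 4 were below 0 and 3 above, Lpin2 and Lipe among the latter, and the difference between the 2 sets was not tested. The 7 genes were set apart with earlier results of these data known, so their common sign is a description only. In bulk RNA, fewer cells of a type and less RNA per cell cannot be told apart.

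**Figure D4:**
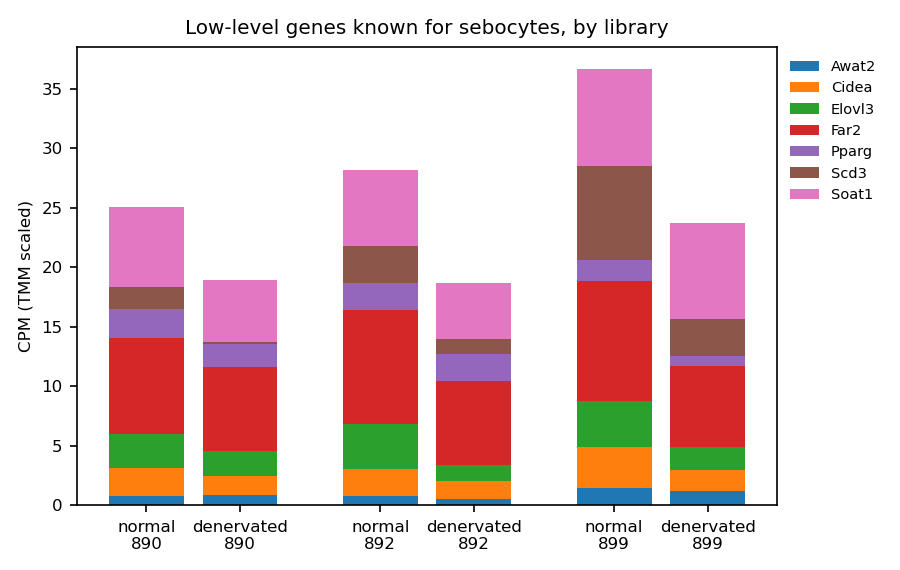
Stacked CPM (TMM scaled) of the 7 low-level genes known for sebocytes, with 1 bar per library and the 2 sides of an animal next to each other. The denervated bars reach 18.7 to 23.7 CPM and the normal bars 25.1 to 36.7 CPM.

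Markers of the gland outside the 42 genes did not all lie the same way. Summed CPM of 12 sebaceous markers was 946 to 962 on the normal and 849 to 1002 on the denervated side, mostly from Myc and Krt79, which keratinocytes outside the gland also express. Cidec and Plin1 were at 0 in every library. The defining receptor gene Mc5r did not exceed 1.503 CPM and was lower in 2 of 3 animals (log2 fold change −0.87, adjusted p = 0.451). Awat1 and Dgat2l6, of the same enzyme family as Dgat2, were too low to be tested. Raw counts were 10, 4 and 13 on the normal side against 0, 1 and 5 for Awat1. For Dgat2l6 they were 5, 1 and 2 against 0 in each denervated library. Both genes were lower in 3 of 3 animals, but denervated libraries had the lower totals. At so few counts the direction is uncertain. Fa2h, which adds a hydroxyl group to fatty acids, stood at 11.5, 13.8 and 10.7 CPM against 4.41, 6.98 and 10.03 CPM, lower in 3 of 3 animals without overlap (−0.78, adjusted p = 0.0690). Krt79 lay at 0.00 and Prdm1 rose (0.56, adjusted p = 0.0352). Summed adipocyte markers reached at most 8.18 CPM in any library, with Plin1, Cidec, Cfd and Retn at 0 in all 6. Summed endothelial markers reached at most 2.62 CPM and fibroblast markers at most 4.44 CPM, the latter lower in 3 of 3 animals. Macrophage and Langerhans cell markers summed to 82.6 to 135 CPM on the normal and 119 to 137 CPM on the denervated side, higher in 3 of 3 animals. The part of these cells in the results above was not tested.

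Lipid genes outside the 42 did not pass in the paired fit. Over 5 further lists with 94 genes, 78 were tested and 0 called by edgeR, where 3.46% of all 12310 tested genes were called. At an unadjusted p below 0.05 stood 17 of the 78 (6 without the block). Over all 12310 tested genes 2246 did (1537 without the block). Of the 78, 58 lay below 0 and 20 above, against 6731 and 5579 of all tested genes. DESeq2 called 0 of these lipid genes as well. The median log2 fold change of the 78 was −0.07. Of 18 tested genes of mitochondrial fatty acid oxidation, Etfdh (0.26 ± 0.08, adjusted p = 0.0928) and Acaa2 (−0.21 ± 0.08) had the smallest p. Of 12 peroxisomal and ether lipid genes these were Agps (0.25 ± 0.08, adjusted p = 0.108) and Hsd17b4 (−0.19 ± 0.09). Of 11 further triglyceride and droplet genes they were Pnpla3, an SREBP target (−0.36 ± 0.12, adjusted p = 0.121), and Agpat4 (−0.38 ± 0.14). Of 17 further genes of fatty acid synthesis and activation they were Acsbg1 (−0.27 ± 0.08, adjusted p = 0.0845) and the transporter gene Slc27a4 (−0.21 ± 0.09). Of 20 lipid regulators they were Srebf2, which drives cholesterol synthesis (0.23 ± 0.09, adjusted p = 0.162), and Ppard (0.27 ± 0.11).

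The deposited raw and estimated counts differ for a few members, which bears on their level but little on the comparison. Over 39 tested members, estimated counts were 2.14 times the raw counts for Acaca and 1.99 times for Fabp5, and 0.76 to 1.05 times for the others. The same 2 genes have the largest shares of 50-base windows that occur in another gene, 52.6% for Acaca, led by the processed pseudogene Gm5182, and 21.1% for Fabp5, led by the processed pseudogene Gm6166. Whether reads from such windows were left out of the raw counts was not tested. Log2 fold changes from the estimated counts were −0.09 for Acaca and −0.41 for Fabp5, against −0.06 and −0.43 from the raw counts. For Dgat1 the ratio was 0.76 with no shared window.

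**Figure D5:**
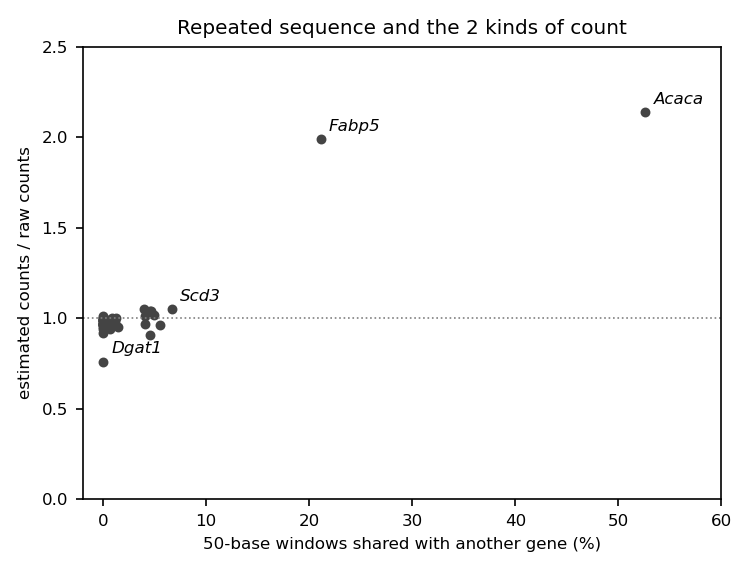
Share of 50-base windows of each tested member's longest coding transcript that occur in another gene (x, in percent) against its estimated counts divided by its raw counts over 6 libraries (y). Acaca at 52.6% and 2.14 and Fabp5 at 21.1% and 1.99 stand apart from the other members, which lie between 0.76 and 1.05.

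Promoters of the members that moved were compared with that of Fasn, the textbook target of SREBP and NF-Y, which did not pass. RefSeq promoters (GRCm38.p6) were at hand for 32 of the 42 members, Scd3 and Lpin2 among the called ones, and not for Fabp5 or Dgat2. The 250 bases before the annotated start are shown 5′ to 3′ in the direction of the gene, with capitals for matches to CCAAT (NF-Y), TCACNCCAC (an SREBP site) or CACGTG (an E-box) on either strand. Neighbouring CCAAT matches on opposite strands may overlap.
Scd3, chr19:44203038-44203287, plus strand: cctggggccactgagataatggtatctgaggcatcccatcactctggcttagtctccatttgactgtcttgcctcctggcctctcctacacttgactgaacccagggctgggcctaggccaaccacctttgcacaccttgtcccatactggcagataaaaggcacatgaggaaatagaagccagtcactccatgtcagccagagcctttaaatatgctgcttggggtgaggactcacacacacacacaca
Lpin2, chr17:71183282-71183531, plus strand, first of 3 starts: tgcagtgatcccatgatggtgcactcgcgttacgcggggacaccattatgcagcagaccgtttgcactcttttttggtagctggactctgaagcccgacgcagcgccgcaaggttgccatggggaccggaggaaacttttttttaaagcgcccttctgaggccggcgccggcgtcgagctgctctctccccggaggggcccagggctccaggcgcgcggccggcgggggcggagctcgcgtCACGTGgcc
Fasn, chr11:120824548-120824797, minus strand: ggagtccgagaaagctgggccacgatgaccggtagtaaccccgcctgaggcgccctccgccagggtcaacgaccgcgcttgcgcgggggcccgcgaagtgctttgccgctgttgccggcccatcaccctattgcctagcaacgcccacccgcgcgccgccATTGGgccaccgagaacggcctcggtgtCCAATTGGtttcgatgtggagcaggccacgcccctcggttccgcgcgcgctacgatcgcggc
The Scd3 window holds no match and that of Fasn 3 CCAAT matches. The Lpin2 window shown holds 1 E-box, that of the next start no match and that of the last start (chr17:71204404-71204653) 3 CCAAT matches, as many as Fasn. CCAAT occurs in 20 of 44 member promoters and in 33.8% of all 32851 promoters of the same length, CACGTG in 4 of 44 and in 6.02%, and TCACNCCAC in 1 of 44 and in 1.05%. These matches describe letters only.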

How the data were processed

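Raw counts per gene were deposited by the authors for 6 libraries, with no normalization. STAR 2.6.1a, Salmon 0.11.2 and the build mm10 appear in the submitters' processing notes, with no roles. Which annotation and counter made the counts, and whether by strand, is not given in the sources used here. Per the file headers, per-sample files hold estimated counts and TPM. The authors' deposited table holds log2 fold changes, p-values, the mean normalised signal and a test score, the last not used.

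Library totals ran from 9610071 to 26167593 counts, lower on the denervated side of each animal. Of 24982 rows, 26 carry names turned into dates, and stayed in the totals. Genes were tested with edgeR 4.0.16 (R 4.3.3): TMM, filterByExpr (minimum count 10, minimum total 15), glmQLFit with the animal as block, adjusted p below 0.05. Standard errors (SE) were derived from the log2 fold change and its F statistic. Animal numbers pair the libraries, since left and right skin of 1 mouse were taken, per the labels' protocols. Deviations from group means correlated at 0.357, 0.390 and 0.451 within animals. Alternatives used DESeq2 1.42.0 and limma 3.58.1. The test was checked on simulated counts. Each library is 1 side of 1 animal, and the labels give no batch.

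Members and lists were chosen with earlier results of these data known. All 42 members are described. Values per library are given for members called with or without the block, tested members with an absolute log2 fold change of at least 0.5, the 10 with the highest TPM, Scd1 to Scd4, Srebf1, Pparg and Fasn, and for others of interest chosen after their values were seen. From each further list, called genes and the 2 with the smallest p are named. Shared 50-base windows were counted on both strands of GENCODE M21 transcripts. Genes were placed by GENCODE M21 on mm10.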

Additional observations from a re-analysis of the deposited data

How the results depend on the processing

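With no filter on low counts the block fit called 987 of 17311 genes and 9 of 41 members, the 4 of the filtered fit among them. It also called 2 of 90 other lipid genes. Library totals gave 1 other lipid gene. Without the replicate block 0 genes and 0 members passed in edgeR, at an unadjusted p below 0.05 1537 genes and 10 members. Limma on log2(TPM + 1) or log2(TPM + 0.1), with the block, called 1 gene each and 0 members. At an unadjusted p below 0.05 stood 12 and 11 of 37 members, and 1580 and 1482 of 11866 genes. Leaving out 1 animal at a time gave 248 of 12330 genes (without animal 892) to 976 of 12614 (without animal 899). Calls among members numbered 4 to 5 of 39 or 40 tested, and among other lipid genes 0 to 4 of 77 or 78. The 4 without animal 899 were Acsbg1, Mbtps1, Slc27a1 and Srebf2, named after their values were seen. Without animal 899, Scd3 and Fabp5 lost their call. Dgat2 and Lpin2 kept theirs without each animal, under each scaling and filter of the block fit, in the estimated counts and by DESeq2, and lost it in limma and without the block. Among named members, leaving out 1 animal turned the direction of Fasn (−0.01 without animal 892 to 0.17 without animal 899) and Elovl1 (−0.02 without animal 890 to 0.16 without animal 899), neither being called. Over the settings that gave an adjusted p, 183 values of named members kept their direction and side of the threshold, uncalled members included. The 17 lost calls all belong to the 4 called members, and 9 values of other members gained a call. DESeq2 gave no adjusted p for Scd3, Elovl3, Cidea, Lipe and Pparg. The causes were not tested. The upper level class held 25 members from 10 TPM, 28 from 5 TPM and 22 from 20 TPM. At the lowest levels counts limit precision, as for Awat2, Scd4 and Scd3.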

Other observations

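Animals ranked in opposite order for Scd3 and Fabp5, on both sides. Animal 890 was the highest for Fabp5 (55.1 and 49.3 CPM on the normal and denervated side) and the lowest for Scd3 (1.88 and 0.108 CPM). Animal 899 was the lowest for Fabp5 (25.6 and 16.8 CPM) and the highest for Scd3 (7.94 and 3.06 CPM). Scd2 was highest in animal 899 as well, at 124.5 and 118 CPM. With 3 animals, no relation between these genes was tested.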
